A study of Mus musculus with 22 samples.

Results

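Cells stop in the first gap phase of the cell cycle when cyclin-dependent kinases are held by inhibitor proteins, and RNA of the genes of this brake was followed here from skin and cultured MC38 cells into the tumors that the cells form in mice. The 10 genes, chosen by name, are the inhibitors of the CIP/KIP family (Cdkn1a, Cdkn1b and Cdkn1c), those of the INK4 family (Cdkn2a, Cdkn2b, Cdkn2c and Cdkn2d), the tumor suppressors Trp53 and Rb1, and Mdm2. All 10 were found among the 46882 genes listed, and all 10 passed the filter on low values in every comparison. In MC38 cells against skin, Cdkn1c passed it only through its skin values. MC38 is a mouse colon carcinoma line, and the line was injected under the skin of female mice aged 8 to 12 weeks.

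The 16 libraries came from 6 groups. The 2 skin libraries are from wild-type C57BL/6N mice at day 23, and the 2 MC38 libraries are cultured cells of C57BL/6N origin, labelled day 0. Wild-type C57BL/6N mice gave 3 tumors at day 23 and 3 at day 46, and mice of the strain B6.129S7-Rag1tm1Mom/J, labelled RAG1-/-, gave 3 tumors at day 13 and 3 at day 23. RAG1 is needed to assemble antigen receptor genes, so such mice make no mature T or B cells but keep macrophages and natural killer cells. Every tumor carries the MC38 cells together with cells of the host, and the RAG1-/- and wild-type hosts also differ in strain background. Nothing in the labels says that replicates came from separate mice, so p-values measure the spread between these samples.

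The libraries held 5589151 to 26134241 reads on genes, and 3 reads in a library, taken as the limit of detection, corresponded to 1.33 to 6.38 normalized counts. The targeted gene did not check the genotype: Rag1 had 1 to 12 reads in each of the 6 tumor libraries labelled RAG1-/- against at most 1 in the wild-type tumors, and reads at the 3′ end may lie outside the part that the allele removes. The T cell receptor genes Cd3e, Cd3g and Trac were at 0 in all 6 libraries labelled RAG1-/-. In the wild-type tumors Cd3e ranged from 3.91 to 23.2, but Cd3g was at 0 in the second day 23 tumor. Sums of the 6 T cell markers were 1.11 to 19.1 in tumors labelled RAG1-/- and 52.9 to 204 in wild-type tumors. Those of the 6 B cell markers were 38.3 to 152 and 108 to 458, so B cell markers were not absent from the RAG1-/- set. MC38 cells showed little of the tissue that their label implies, since 8 colon epithelium markers summed to 4.28 and 7.82 normalized counts and Krt18, Krt19, Cdx2 and Krt20 were at 0 in both libraries. Skin held epidermis (9 markers summing to 388892 and 397763), fibroblasts and skeletal muscle (6 markers, 82871 and 129287). In tumors the 7 macrophage markers summed to 12473 to 25959, against 44.5 and 66.5 in MC38 cells.

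The INK4 proteins bind CDK4 and CDK6 and keep D-type cyclins from activating them, whereas the CIP/KIP proteins act on the cyclin-CDK complexes, those with cyclin E and CDK2 among them. The kinases phosphorylate the RB protein, which in its unphosphorylated form holds the E2F factors and silences genes of DNA replication. The p53 protein is the transcription factor that stress and DNA damage activate. It raises Cdkn1a and also Mdm2, and the MDM2 ligase in turn marks p53 for destruction. Cdkn2a encodes 2 unrelated proteins from alternative first exons, the CDK4 inhibitor p16INK4a and p19ARF, which restrains MDM2. Loss or silencing of these brakes is common in tumors.

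Positions are from the mouse genome GRCm38, the assembly also called mm10, with GENCODE annotation. Cdkn1a spans chr17:29090976-29100727 on the plus strand, Cdkn1b spans chr6:134920401-134925513 on the plus strand and Cdkn1c spans chr7:143458339-143461050 on the minus strand. Cdkn2a (chr4:89274471-89294653) and Cdkn2b (chr4:89306299-89311039) are neighbors on the minus strand of chromosome 4, and Cdkn2c lies farther along at chr4:109660876-109667189. Cdkn2d is at chr9:21288410-21291407, Trp53 at chr11:69580359-69591873, Mdm2 at chr10:117688875-117710758 and Rb1 at chr14:73183673-73325822. The reads come from transcript ends, where both proteins of Cdkn2a share their sequence, so p16INK4a and p19ARF RNA could not be told apart. Exons of Rcbtb2 on the opposite strand cover 76.6% of the last 500 annotated exonic bases of Rb1, and the strand setting of the counting is not given in the sources used here, so Rb1 values are uncertain to that extent.

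Promoter windows of 250 bases before the transcription start (RefSeq, GRCm38.p6) were at hand for 8 of the 10 genes, and those of Cdkn1a, Cdkn2b and Cdkn2a are shown because Cdkn1a and Cdkn2b had opposite differences between MC38 cells and skin, and because Cdkn2a is the neighbor of Cdkn2b. Each sequence runs 5′ to 3′ on the strand of its gene, and capitals mark matches to the p53 decamer consensus or to the GC box GGGCGG, searched on both strands.
Cdkn1a, distal start, chr17:29090729-29090978: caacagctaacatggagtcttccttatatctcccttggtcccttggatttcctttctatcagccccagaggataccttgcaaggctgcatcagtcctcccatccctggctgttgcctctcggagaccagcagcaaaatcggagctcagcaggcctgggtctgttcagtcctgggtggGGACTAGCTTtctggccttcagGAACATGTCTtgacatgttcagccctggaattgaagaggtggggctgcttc
Cdkn1a, proximal start, chr17:29093519-29093768: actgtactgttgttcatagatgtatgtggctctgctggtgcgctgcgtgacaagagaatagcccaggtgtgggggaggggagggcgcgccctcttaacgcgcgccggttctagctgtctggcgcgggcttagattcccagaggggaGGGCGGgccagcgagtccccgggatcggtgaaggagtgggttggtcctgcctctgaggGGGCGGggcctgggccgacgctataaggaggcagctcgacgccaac
Cdkn2b, chr4:89311033-89311282: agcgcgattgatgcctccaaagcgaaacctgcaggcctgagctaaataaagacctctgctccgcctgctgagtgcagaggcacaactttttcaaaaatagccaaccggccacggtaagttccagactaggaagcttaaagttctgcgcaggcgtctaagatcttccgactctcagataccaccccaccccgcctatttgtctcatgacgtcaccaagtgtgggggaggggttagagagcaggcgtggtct
Cdkn2a, upstream start (first exon of p19ARF), chr4:89294620-89294869: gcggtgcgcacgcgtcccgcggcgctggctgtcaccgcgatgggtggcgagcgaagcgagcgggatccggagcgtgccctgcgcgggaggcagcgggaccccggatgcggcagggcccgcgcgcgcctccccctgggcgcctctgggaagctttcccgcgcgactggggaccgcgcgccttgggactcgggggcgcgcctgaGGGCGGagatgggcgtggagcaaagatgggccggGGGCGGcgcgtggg
Cdkn2a, downstream start (first exon of p16INK4a), chr4:89282193-89282442: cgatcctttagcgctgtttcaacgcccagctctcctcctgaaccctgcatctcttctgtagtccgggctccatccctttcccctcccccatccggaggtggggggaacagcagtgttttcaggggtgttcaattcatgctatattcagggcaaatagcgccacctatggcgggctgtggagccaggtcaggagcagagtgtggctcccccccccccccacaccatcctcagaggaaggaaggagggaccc
The distal window of Cdkn1a held 2 matches to the p53 decamer, and the windows of Mdm2, Trp53 and Cdkn2d held 1 each. A match stood in 7.13% of the 32851 windows of all genes. The GC box, a motif bound by SP family factors, was present in 32.7% of all windows. It occurred 2 times in the proximal window of Cdkn1a and 2 times in the upstream window of Cdkn2a. The upstream window of Cdkn2c and the window of Cdkn2d held 3 each, that of Mdm2 held 2 and that of Cdkn1b held 1. It was not found in the windows of Cdkn2b and Trp53, the distal window of Cdkn1a or the downstream windows of Cdkn2a and Cdkn2c. These letter matches are descriptions, and no binding was measured.

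All values below are normalized counts (reads per gene divided by the library's size factor), and each log2 fold change is on the scale of log2(normalized count + 1). Genes were tested with limma, and adjusted p is by the Benjamini-Hochberg method over all genes tested.

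**Figure D1:**
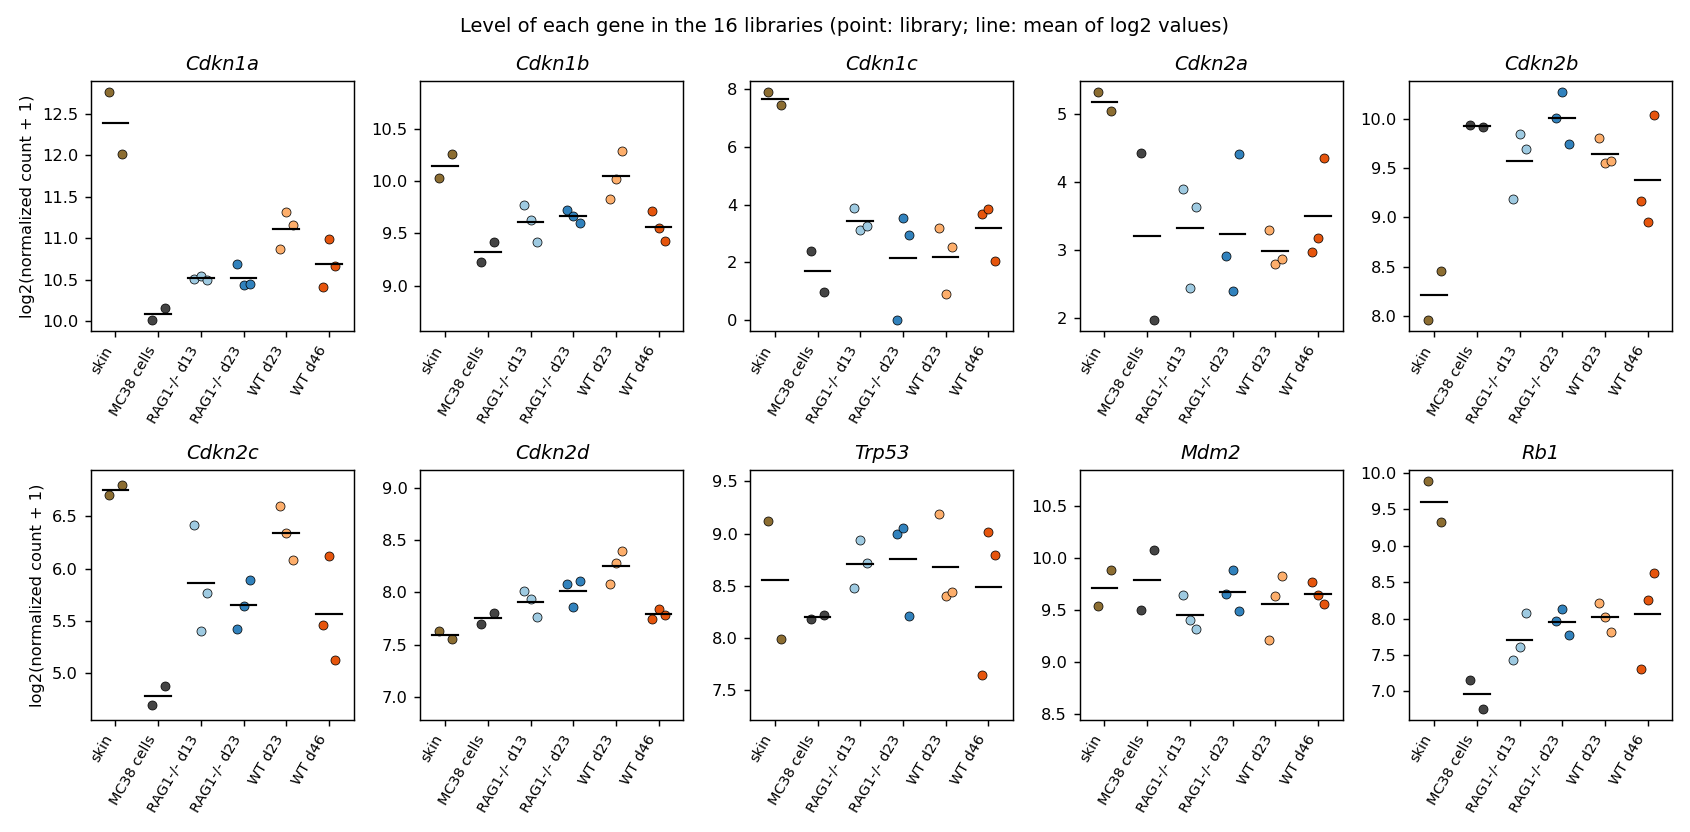
Level of each of the 10 genes in the 16 libraries, as log2(normalized count + 1), by group (d, day of removal; WT, wild-type). Points are libraries and lines are group means of the log2 values. Skin stands above all other groups for Cdkn1a, Cdkn1c, Cdkn2a, Cdkn2c and Rb1 and below them for Cdkn2b and Cdkn2d, and MC38 cells hold the lowest mean for Cdkn1a, Cdkn1b, Cdkn1c, Cdkn2c, Trp53 and Rb1.

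The first comparison asked how the brake differed between MC38 cells and skin. Most inhibitors and Rb1 were lower in the cells: Cdkn1a, Cdkn1b, Cdkn1c, Cdkn2c and Rb1 fell, and Cdkn2b rose. In all, 6 of 10 genes passed the test (60%), against 62% of all 16780 genes tested, so the share of the 10 genes that differed was near that of the transcriptome. By direction, 5 genes were lower, where 41.2% of all genes were lower, and 1 was higher, where 20.8% of all genes were higher. Among the 5, Cdkn1c passed the filter only through its skin values. The median log2 fold change was −1.40 over the 10 genes and −0.40 over all genes.

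Cdkn1a, the p21 inhibitor that p53 induces, had 6916 and 4127 normalized counts in skin and 1034 and 1138 in MC38 cells. Both skin libraries stood above both cell libraries, and the mean was 5.09-fold higher in skin. The log2 fold change of cells against skin was −2.30 ± 0.27 (SE, n = 2 and 2; limma, adjusted p = 0.00169). It was called whichever single library was left out.

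Cdkn1b, the p27 inhibitor that accumulates in resting cells, had 1048 and 1229 normalized counts in skin and 600 and 685 in MC38 cells. The groups did not overlap, as in 82% of all genes in this comparison of 2 against 2 libraries, and the cells were lower by a log2 fold change of −0.82 ± 0.16 (SE, n = 2 and 2; limma, adjusted p = 0.00898). The call was lost when libraries were rescaled to the same total (log2 fold change −0.41, adjusted p = 0.0868), and also without either skin library or without the first MC38 library (adjusted p = 0.0662, 0.0869 and 0.0803, limma).

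Cdkn1c, the imprinted p57 inhibitor of differentiating tissues, was well above the limit of detection only in skin, with 237 and 173 normalized counts. MC38 cells had 4.28 and 0.978, from 5 reads and 1 read. The mean of the cells, 2.63, was under the filter's mean of 5, so Cdkn1c entered this test only through skin. Its call as lower therefore adds nothing to the values themselves. The log2 fold change was −5.98 ± 0.59 (SE, n = 2 and 2; limma, adjusted p = 0.00103), and leaving out the first or the second skin library gave adjusted p = 0.0772 and 0.0706. Other genes of the imprinted region around Cdkn1c on distal chromosome 7 were lower as well. Of 11 tested, 9 were called lower in the cells, where 41.2% of all genes were lower. None was higher, and the median log2 fold change was −4.12. Among them H19, a noncoding RNA, had 1350.3 and 1629 normalized counts in skin and 4.28 and 12.7 in MC38 cells, while Ascl2 and Phlda2 were at 0 in both MC38 libraries.

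The INK4 genes went in different directions. Cdkn2b, the p15 inhibitor that TGF-beta induces, had 248 and 351 normalized counts in skin and 981 and 965 in MC38 cells. The cell libraries were close to each other and above both skin libraries, and the mean was 3.25-fold higher in the cells. The log2 fold change was 1.72 ± 0.21 (SE, n = 2 and 2; limma, adjusted p = 0.00202), and the call was kept whichever single library was left out.

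Cdkn2a, beside Cdkn2b on chromosome 4, was near the limit of detection in the cells, with 20.5 and 2.93 normalized counts against 38.8 and 31.9 in skin. The cell values came from 24 and 3 reads, and both stood below skin. The difference of −1.98 ± 0.87 (SE, n = 2 and 2) did not pass the test (limma, adjusted p = 0.107). Without the first MC38 library it was −3.20 (limma, adjusted p = 0.0204), so the higher cell library set the call.

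Around Cdkn2a and Cdkn2b another 7 genes were measured, and MC38 cells had 4 of them higher and 2 lower than skin. Mtap, a methionine salvage enzyme often lost together with these inhibitors in tumors, had 603 and 664 normalized counts in skin and 5387 and 4962 in MC38 cells (log2 fold change 3.03 ± 0.13 SE, n = 2 and 2; limma, adjusted p = 0.000153). Elavl2, an RNA-binding protein of neurons, and Dmrta1 were also higher, by log2 fold changes of 4.72 and 3.63. Hacd4, an enzyme of very long fatty acids, was lower by −3.48 and Klhl9 by −0.74.

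Cdkn2c, the p18 inhibitor, had 103 and 111 normalized counts in skin and 24.8 and 28.4 in MC38 cells. The groups were far apart for their spread, with a log2 fold change of −1.97 ± 0.29 (SE, n = 2 and 2; limma, adjusted p = 0.00355). Leaving out either skin library put the adjusted p at 0.0510 and 0.0501. Cdkn2d, the p19 inhibitor, had 197 and 187 in skin and 207 and 223 in MC38 cells, a log2 fold change of 0.16 with a 95% interval of −0.32 to 0.64 (limma, adjusted p = 0.491).

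Trp53, the gene of p53, had 556 and 252 normalized counts in skin and 289 and 297 in MC38 cells. The skin libraries lay on either side of the cells, and the log2 fold change was −0.35 with a 95% interval of −1.38 to 0.68 (limma, adjusted p = 0.479). Without the second skin library the difference was −0.92 (adjusted p = 0.0284), and without the first it was 0.22, so a single skin library set it. Mdm2, the p53 ligase, had 741 and 943 in skin and 722 and 1079 in MC38 cells, and its log2 fold change was 0.08 with a 95% interval of −0.57 to 0.73 (limma, adjusted p = 0.805). Cdkn1a and Mdm2, both p53 targets, thus had log2 fold changes of −2.30 and 0.08 side by side.

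Rb1 had 947 and 639 normalized counts in skin and 142 and 108 in MC38 cells. The cells were lower by a mean of 6.35-fold, with a log2 fold change of −2.64 ± 0.27 (SE, n = 2 and 2; limma, adjusted p = 0.00121). The call missed the threshold without the first skin library (adjusted p = 0.0552). With that library left out, 2 of the 10 genes, Cdkn1a and Cdkn2b, remained called. The smallest exact permutation p for 2 against 2 libraries is 0.333 (two-sided), so that test could not pass the threshold here, and the calls rest on the limma fit over all genes.

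The tissue makeup moved with these differences. All 9 epidermis markers, all 6 skeletal muscle markers and 7 of 8 fibroblast markers were called lower in MC38 cells, and the epidermis sum was 388892 and 397763 in skin against 311 and 330 in the cells. The part of this makeup in the lower inhibitor values was not tested, and in bulk samples fewer cells of a type and less RNA per cell cannot be told apart. Rescaling libraries to the same total moved the median of all genes by 0.41 on the log2 scale and turned 3482 higher and 6920 lower genes into 4972 and 5759. The 10 genes then had 2 higher (Cdkn2b and Cdkn2d) and 4 lower.

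Most E2F targets and most cyclins and kinases were called higher in MC38 cells. Of 24 E2F target genes, which serve DNA replication and mitosis, 22 were higher and 0 lower, with a median log2 fold change of 2.04, and rescaling to the upper quartile or the same total gave 23 and 24. Rrm2, a subunit of ribonucleotide reductase, had 655 and 674 normalized counts in skin and 5017 and 5271 in the cells, a log2 fold change of 2.95 ± 0.12 (SE, n = 2 and 2; limma, adjusted p = 0.000145). Mcm3, of the replicative helicase, differed by 2.86 and Mybl2, a transcription factor of proliferating cells, by 2.68.

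Of 14 cyclins and kinases of the first gap phase, 10 were higher and 0 lower, or 11 and 13 higher on those scalings. Ccne1, the cyclin E1 gene, rose by a log2 fold change of 2.82, Ccne2 by 1.86 and the phosphatase gene Cdc25a by 1.69. In the RB family and E2F list 8 of 15 genes were higher and 3 lower. E2f1 had 181 in both skin libraries and 763 and 805 in MC38 cells, a difference of 2.11, whereas E2f6, a repressor of the family, fell by 4.55 on the log2 scale.

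Among 27 genes that regulate CDK inhibitors, 11 were higher and 8 lower. Skp2 and Cks1b, which together hand p27 to the ubiquitin machinery, had log2 fold changes of 2.88 and 2.37. Dtl, which does so for p21, had 1.82. Id1, Tbx2 and Foxo1 fell by 2.91, 2.77 and 2.56 on the log2 scale, and Foxo1 encodes an activator of Cdkn1b transcription. The Tbx2 value rests on few reads, 14 and 16 in skin and 1 and 4 in MC38 cells.

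The p53 targets did not move together. Of 32 tested, 10 were higher and 14 lower, with a median of −0.25 against −0.40 over all genes, and with libraries rescaled to the same total the counts were 12 and 11 and the median turned to 0.16. Plk2, Gadd45a and Bax were higher by 2.49, 1.92 and 1.91. Perp, a desmosome gene strong in epidermis, had 26708 and 29918 normalized counts in skin and was at 0 in both MC38 libraries. Pmaip1, the NOXA gene of apoptosis, had 170 and 177 in skin and was at 0 in both MC38 libraries, and Sfn fell by 7.28 on the log2 scale. Among 18 p53 regulators and relatives 4 were higher and 6 lower, led by the checkpoint kinase gene Chek1 (log2 fold change 2.50) and by Trp63, the p53 relative of epidermis, which had 1168 and 1238 normalized counts in skin and at most 3.42 in MC38 cells. With the same total these counts became 10 and 3.

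**Figure D2:**
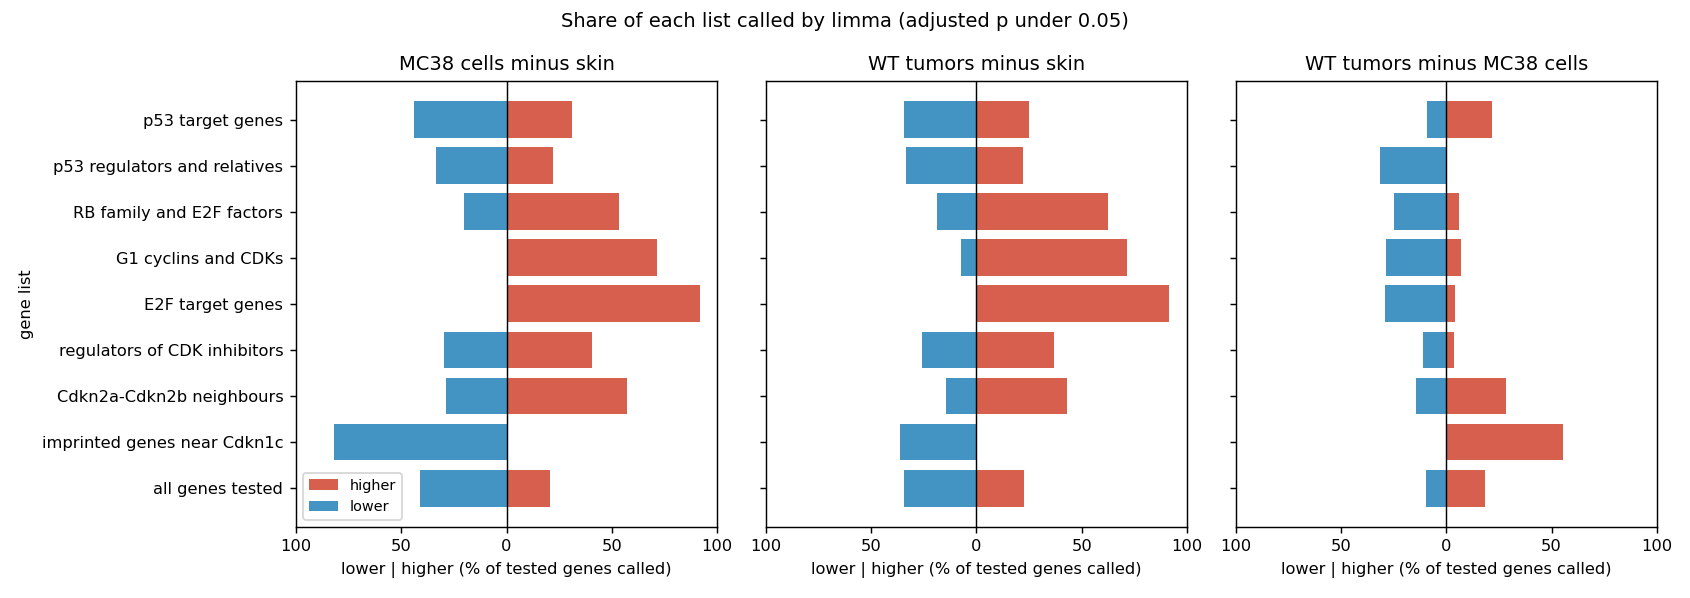
Share of tested genes of each list called higher (red, to the right) or lower (blue, to the left) by limma at an adjusted p under 0.05, in 3 comparisons, with all genes tested in the bottom row. In MC38 cells and in wild-type (WT) tumors 22 of 24 E2F target genes are higher than in skin, while the p53 targets hold calls in both directions.

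Wild-type tumors were then set against skin, with the 6 tumors weighted equally by day. Of the 10 genes 6 passed the test (60%), against 57% of all 16259 genes tested. Cdkn1a, Cdkn1c, Cdkn2a and Rb1 were lower, 4 of 10 where 34.2% of all genes were lower, and Cdkn2b and Cdkn2d were higher, 2 of 10 where 22.8% were higher. Rescaling to the same total changed neither count, although it shifted the median of all genes from −0.18 to 0.21 and the calls over all genes from 3708 higher and 5554 lower to 5502 and 4173; rescaling to the upper quartile gave 4386 and 4604.

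Cdkn1a ranged from 1364 through a median of 1956 to 2547 normalized counts in the 6 wild-type tumors, below both skin libraries. Its log2 fold change was −1.48 ± 0.19 (SE, n = 6 and 2; limma, adjusted p = 1.47e-05). Rb1 ranged from 157 through 279 to 395 in those tumors, also below skin throughout, with a log2 fold change of −1.56 ± 0.29 (SE, n = 6 and 2; limma, adjusted p = 0.000411).

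Cdkn1c ranged from 0.852 through 6.43 to 13.4 normalized counts in wild-type tumors, and its log2 fold change was −4.98 ± 0.85 (SE, n = 6 and 2; limma, adjusted p = 0.000179). Cdkn2a ranged from 5.97 through 7.45 to 19.5 and was lower than skin by −1.93 ± 0.60 (SE, n = 6 and 2; limma, adjusted p = 0.0126), a call lost without the first or the second skin library (adjusted p = 0.0897 and 0.0538). Both genes were within reach of the limit of detection in the tumors.

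Cdkn2b had 493 to 1050 normalized counts in wild-type tumors with a median of 757, above both skin libraries. Its log2 fold change was 1.31 ± 0.26 (SE, n = 6 and 2; limma, adjusted p = 0.000652). Cdkn2d had 214 to 336 with a median of 249.2 and was higher by only 0.43 ± 0.16 (SE, n = 6 and 2; limma, adjusted p = 0.0331). That call depended on single libraries, with adjusted p = 0.0548 and 0.0856 without the first or the second skin library, 0.0594 without the third day 23 tumor and 0.0539 without the second day 46 tumor.

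The remaining 4 genes were not called. Cdkn1b differed from skin by −0.34 (95% interval −0.66 to −0.03; limma, adjusted p = 0.0613, and 0.0279 and 0.0415 without the third day 23 or the first day 46 tumor), and Cdkn2c by −0.80 (95% interval −1.55 to −0.05; adjusted p = 0.0637, limma, and 0.0321 without the second day 46 tumor). Trp53 differed by 0.03 (95% interval −0.78 to 0.83) and Mdm2 by −0.10 (95% interval −0.48 to 0.27). The smallest exact permutation p for 6 against 2 libraries is 0.0714 (two-sided), and 7 of the 10 genes had tumors wholly above or below skin, where 58% of all genes did.

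Of the partner genes, 22 of 24 E2F targets were higher than in skin and 0 lower (median 1.72), led by Bub1, Mybl2 and Cdc45 with log2 fold changes of 2.71, 2.54 and 2.50. Ccnd1, the cyclin D1 gene and a partner of the INK4 targets CDK4 and CDK6, rose by 1.96, and in its list 10 of 14 genes were higher and 1, Ccnd2, was lower. Skp2 and Cks1b rose by 2.11 and 2.31. In the list of 32 p53 targets 8 were higher, Tnfrsf10b and Plk2 among them (1.59 and 1.52), and 11 lower, Perp and Sfn among them (−13.23 and −7.60). Perp had 117 normalized counts in the second day 23 wild-type tumor and at most 4.76 in any other tumor, beside an epidermis marker sum of 2014 in that tumor and 238 to 715 in the other wild-type tumors. As in MC38 cells, skin markers moved with the comparison: all 9 epidermis and all 6 skeletal muscle markers were lower in tumors, and their part was not tested.

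**Figure D3:**
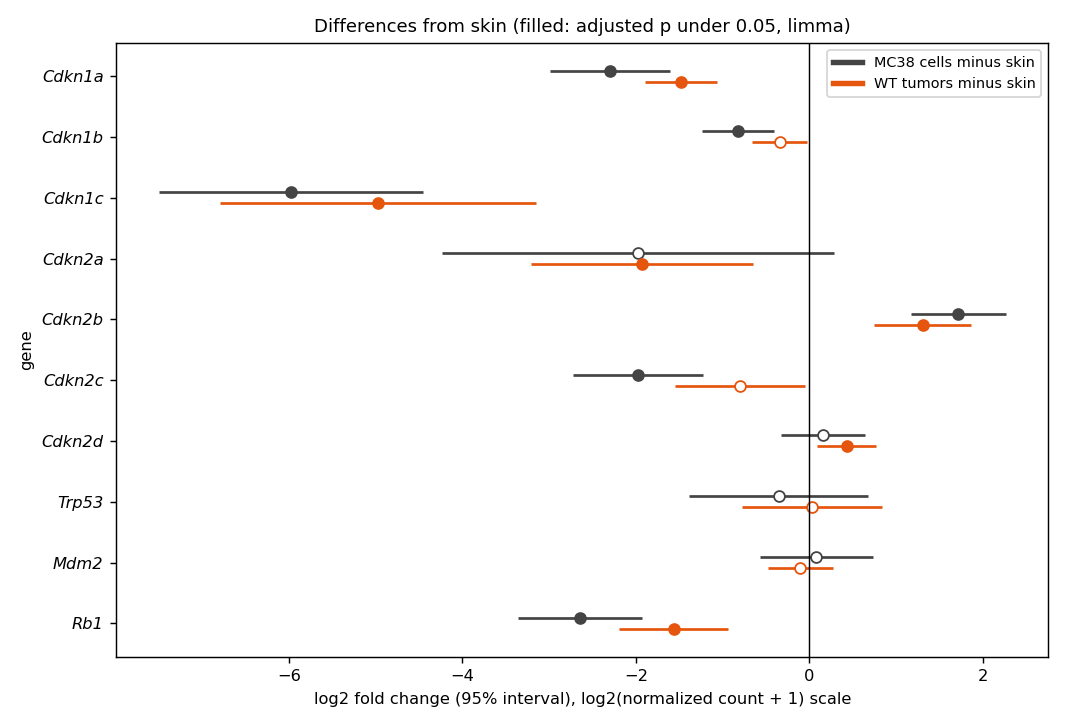
Log2 fold change of each gene in MC38 cells (gray) and in wild-type (WT) tumors (orange) against skin, on the log2(normalized count + 1) scale. Lines are 95% intervals from limma, and filled points passed at an adjusted p under 0.05. Both comparisons use the same 2 skin libraries, so they are not independent. Cdkn2b lies to the right (1.72 and 1.31) and Cdkn1a, Cdkn1c and Rb1 to the left in both.

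Tumors were next compared with the cells that had been injected. In wild-type tumors 4 of the 10 genes rose and 0 fell (40%), where 27.9% of all 14708 genes tested were called in either direction and 18.3% were higher. The 4 were Cdkn1a, Cdkn1b, Cdkn2c and Rb1, which were also the 4 whose 6 wild-type tumors all stood above both MC38 libraries. Of all genes, 21.7% were wholly above the cells and 37.4% did not overlap in either direction. The median log2 fold change was 0.43 over the 10 genes and 0.05 over all genes. In tumors labelled RAG1-/- 1 gene, Rb1, was called (10%), against 23.3% of all genes in either direction and 15.8% higher, with a median of 0.37 over the 10 genes and 0.06 over all genes.

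Cdkn1a had 1034 and 1138 normalized counts in MC38 cells and 1364 or more in every tumor. In log2 terms the change was 0.82 ± 0.16 in wild-type tumors (SE, n = 6 and 2; limma, adjusted p = 0.000661), and this call was kept under all 19 alternatives. It was 0.44 ± 0.16 in tumors labelled RAG1-/-, which ranged from 1389 through 1446 to 1643 (SE, n = 6 and 2; limma, adjusted p = 0.0535), and was called after rescaling to the upper quartile (0.0378) or with DESeq2 (0.0428). The difference between both tumor sets, tested in the tumors alone, was 0.38 ± 0.12 and was not called (limma, adjusted p = 0.190), so a call in wild-type tumors alone does not show that the genotypes differ.

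Rb1 rose from 142 and 108 normalized counts in MC38 cells to between 157 and 395 in wild-type tumors, by 1.08 ± 0.28 (SE, n = 6 and 2; limma, adjusted p = 0.0078). Tumors labelled RAG1-/- ranged from 171 through 234 to 279, a log2 fold change of 0.87 ± 0.28 (SE, n = 6 and 2; limma, adjusted p = 0.0325). All 12 tumors were above both cell libraries, and in the RAG1-/- set 3 of the 10 genes (Cdkn1a, Cdkn2c and Rb1) were wholly above the cells, where 21.2% of all genes were wholly above and 36.6% did not overlap in either direction. The wild-type call was lost without the second MC38 library (adjusted p = 0.146), and the RAG1-/- call was lost without either MC38 library (0.0792 and 0.323), without the third day 13 tumor (0.0664) or without the second day 23 tumor (0.0566), and also with no filter (0.0612), no trend (0.0674) or the replicate block (0.0637).

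Cdkn2c had 24.8 and 28.4 normalized counts in MC38 cells and 33.9 or more in every tumor. The log2 fold change was 1.17 ± 0.35 in wild-type tumors (SE, n = 6 and 2; limma, adjusted p = 0.0171) and 0.97 ± 0.35 in tumors labelled RAG1-/- (limma, adjusted p = 0.0505, and 0.0346 and 0.0458 without the second day 13 or the first day 23 tumor), and it was called with a pseudocount of 0.1 (0.0481), with no trend (0.0393) and with DESeq2 (0.0384). The wild-type call was lost without either MC38 library (adjusted p = 0.146 and 0.0911). Cdkn1b had 600 and 685 in MC38 cells and 686 to 1253 in wild-type tumors, with the lowest tumor just above the higher cell library. It rose by 0.48 ± 0.15 (SE, n = 6 and 2; limma, adjusted p = 0.0266), a call lost without either MC38 library (0.256 and 0.0828) or without the third day 23 tumor (0.0514). In tumors labelled RAG1-/- the log2 fold change was 0.31 (95% interval −0.02 to 0.63). Without the first and the second MC38 library the wild-type count of 4 genes became 2 and 1.

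Cdkn2b was not called in either tumor set, with 493 to 1232 normalized counts in the 12 tumors against 981 and 965 in MC38 cells. Its differences were −0.41 (95% interval −0.91 to 0.09) in wild-type tumors, or −0.58 and called without the third day 46 tumor (limma, adjusted p = 0.0239), and −0.14 (95% interval −0.63 to 0.36) in tumors labelled RAG1-/-. Cdkn2d differed by 0.27 and 0.21, Trp53 by 0.38 and 0.53 and Mdm2 by −0.18 and −0.23, and limma called none of them. Cdkn1c (0 to 13.9 in the tumors) and Cdkn2a (4.26 to 20.3) had wide 95% intervals, from −0.91 to 2.91 and from −0.81 to 3.01 for Cdkn1c and from −1.48 to 1.57 and from −1.44 to 1.60 for Cdkn2a.

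Host cells moved with the rise of these genes. Among markers, 7 of 7 macrophage, 5 of 5 endothelium and 7 of 8 fibroblast genes were higher in wild-type tumors than in MC38 cells, and the macrophage sum was 16749 to 25959 there, 12473 to 21728 in tumors labelled RAG1-/- and 44.5 and 66.5 in the cells. Their part in the rise of Cdkn1a, Cdkn1b, Cdkn2c and Rb1 was not tested.

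Of the E2F targets 7 of 24 were lower and 1 higher in wild-type tumors, where 9.61% of all genes were lower, with a median of −0.26, and 3 lower and 1 higher with libraries rescaled to the upper quartile. In tumors labelled RAG1-/- 3 of 24 were lower and 1 higher, where 7.55% of all genes were lower, with a median of −0.08. In wild-type tumors Rrm2 fell by 0.98 and Mcm3 by 0.80 on the log2 scale, while Bub1, a mitotic checkpoint kinase, rose by 0.58. Of the cyclins and kinases 4 of 14 were lower, or 2 with the upper quartile, Ccne1 and Cdc25a among the 4, and Ccnd1 rose by 0.53. In tumors labelled RAG1-/- 2 of the 14, Ccnd2 and Cdc25a, were lower and 0 higher. Skp2 fell by 0.77 in wild-type tumors.

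The p53 targets held 7 higher and 3 lower of 32 in wild-type tumors, where 18.3% of all genes were higher and 9.61% lower. In tumors labelled RAG1-/- they held 6 higher and 2 lower, where 15.8% of all genes were higher and 7.55% lower. Their median log2 fold changes were −0.09 and −0.006, against 0.05 and 0.06 over all genes. Pmaip1 was at 0 in MC38 cells and at 18.4 to 47.7 normalized counts in the 12 tumors. Btg2, an antiproliferative gene, rose by 3.16 and 3.14 in the wild-type and RAG1-/- sets, and Tigar, which limits glycolysis, fell by 1.00 and 0.97. Mdm4, the relative of Mdm2 that also restrains p53, fell by 0.52 and 0.57. Rescaling to the upper quartile shifted the median of all genes by 0.16 in the wild-type comparison and changed the counts over all genes from 2687 higher and 1413 lower to 3076 and 622. The p53 regulators then had 0 calls in either direction, against 5 lower of 16 before.

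Of 9 genes tested from the imprinted region near Cdkn1c, 5 were higher and 0 lower in either tumor set. Of all genes, 18.3% were higher in the wild-type set and 15.8% in the RAG1-/- set. The list was drawn by position, and imprinting of its genes was not tested. H19 ranged from 693 to 17161 normalized counts in the tumors and Igf2, a growth factor gene, from 10.8 to 401, while Igf2 was at 0 in both MC38 libraries. Cdkn1c itself stayed between 0 and 13.9 in those tumors.

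**Figure D4:**
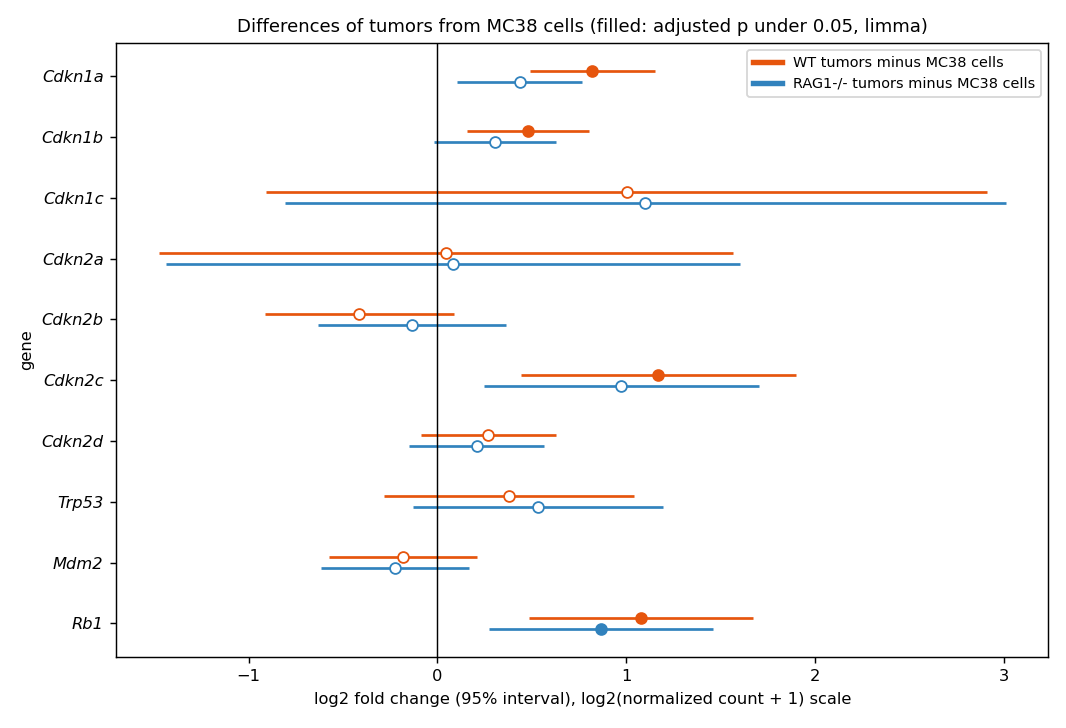
Log2 fold change of each gene in wild-type (WT, orange) tumors and those labelled RAG1-/- (blue) against MC38 cells, on the log2(normalized count + 1) scale, with 95% intervals from limma and filled points for an adjusted p under 0.05. Both comparisons share the 2 MC38 libraries. Cdkn1a, Cdkn1b, Cdkn2c and Rb1 are filled for wild-type tumors and Rb1 alone for tumors labelled RAG1-/-.

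Adaptive immunity was addressed by wild-type tumors against those labelled RAG1-/- at the shared day 23. None of the 10 genes passed the test (0%), where 0.278% of all 14746 genes did, or 41 genes. At an unadjusted p under 0.05 stood 2 of the 10 genes, Cdkn1a and Cdkn1b, and 1646 of all 14746 genes. With edgeR and DESeq2 on the recovered reads, 0 of the 10 were called as well.

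Cdkn1a had 1873, 2547 and 2283 normalized counts in the wild-type tumors and 1643, 1389 and 1401 in those labelled RAG1-/-. Every wild-type tumor was above every tumor labelled RAG1-/-, by 1.51-fold in the mean. It had a log2 fold change of 0.59 with a 95% interval of 0.24 to 0.94 (limma, adjusted p = 0.163), and over 17 alternatives the adjusted p ran from 0.0560 to 0.406 with the same direction. The exact permutation p was 0.1, the smallest that 3 against 3 tumors allow (two-sided).

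Cdkn1b had 907, 1041 and 1253 normalized counts in wild-type tumors and 846, 811 and 775 in those labelled RAG1-/-, a log2 fold change of 0.38 with a 95% interval of 0.05 to 0.72 (limma, adjusted p = 0.380). Cdkn2c had 95.9, 80.1 and 66.5 against 41.9, 48.9 and 58.3, a log2 fold change of 0.69 with an interval of −0.06 to 1.44 (limma, adjusted p = 0.500). With Cdkn1a these were the 3 genes whose groups did not overlap, all higher in wild-type tumors, where 16.1% of all genes did not overlap and 8.50% were wholly higher. The epidermis markers summed to 393, 2014 and 715 in the same wild-type tumors and to 393 to 482 in those labelled RAG1-/-, and the part of that tissue in the Cdkn1a values was not tested.

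The other genes had intervals that contained 0. Cdkn2b had 895, 751 and 762 in wild-type tumors and 1032, 1232 and 856 in those labelled RAG1-/-, a log2 fold change of −0.36 with an interval of −0.89 to 0.17. Trp53 had 581, 337 and 347 against 509, 532 and 295, and Mdm2 had 592, 795 and 905 against 803, 941 and 716. Both groups overlapped for these 2 genes, with log2 fold changes of −0.08 and −0.12. Rb1 differed by 0.06 (95% interval −0.55 to 0.67) and Cdkn2d by 0.24 (−0.13 to 0.61). Cdkn2a differed by −0.25 and Cdkn1c by 0.04 with intervals wider than 2 log2 units.

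Averaged over both days of each genotype, where the days differ (23 and 46 against 13 and 23), 0 of the 10 genes were called against 0.712% of all genes, and 0 had groups that did not overlap, against 0.983%. Of the 10 genes, Cdkn1a alone had an unadjusted p under 0.05, as had 1682 of all 14746 genes. Cdkn1a differed by 0.38 (95% interval 0.14 to 0.63; limma, adjusted p = 0.190), with a permutation p of 0.0281 for this single value (exact, two-sided). Adjusted p over its 23 alternatives ran from 0.0830 to 0.377. In the p53 target list, the E2F targets and the other 6 lists of partners 0 genes were called in this or in any other comparison between tumor groups.

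Time was followed within each genotype. In wild-type tumors from day 23 to day 46, 0 of the 10 genes and 0% of all genes were called by limma (1261 genes at an unadjusted p under 0.05, and 0 genes by edgeR and 43 by DESeq2), and 4 of the 10 stood at an unadjusted p under 0.05. Cdkn1b had 841, 748 and 686 normalized counts at day 46, below all 3 tumors of day 23, with a log2 fold change of −0.48 (95% interval −0.82 to −0.15; limma, adjusted p = 0.444). Cdkn2d had 271, 311 and 336 at day 23 and 214, 228 and 219 at day 46, again without overlap, with −0.47 (95% interval −0.84 to −0.09; limma, adjusted p = 0.499). In all, 2 of the 10 genes did not overlap between the days, against 12.5% of all genes.

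Cdkn1a had 1364, 2038 and 1625 normalized counts at day 46, so its days overlapped, and its log2 fold change was −0.42 (95% interval −0.77 to −0.07; limma, adjusted p = 0.510). Cdkn2c had 43.0, 68.5 and 33.9 at day 46 with a log2 fold change of −0.77 (95% interval −1.52 to −0.02; limma, adjusted p = 0.574). Rb1, with 157, 304 and 395, and Trp53, with 198, 516 and 445, spread widely at day 46, and the first tumor was the lowest for both. These comparisons reuse the 3 wild-type tumors of day 23, so a low or high value in them enters both this and the genotype comparison.

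In tumors labelled RAG1-/- from day 13 to day 23, 0 of the 10 genes and 0% of all genes were called by limma (1722 genes at an unadjusted p under 0.05, and 0 by edgeR and 206 by DESeq2), and 0 of the 10 had an unadjusted p under 0.05. Cdkn1a was steady, with 1452, 1495 and 1439 normalized counts at day 13 and 1643, 1389 and 1401 at day 23 (log2 fold change 0.01, 95% interval −0.34 to 0.36). Cdkn2b had 583, 920 and 826 at day 13 and 1032, 1232 and 856 at day 23, a log2 fold change of 0.43 (95% interval −0.10 to 0.96). No gene of the 10 separated the days, where 19.4% of all genes did. Skeletal muscle markers summed to 7487, 304 and 7412 at day 13 and to 33.6 to 58.9 at day 23.

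**Figure D5:**
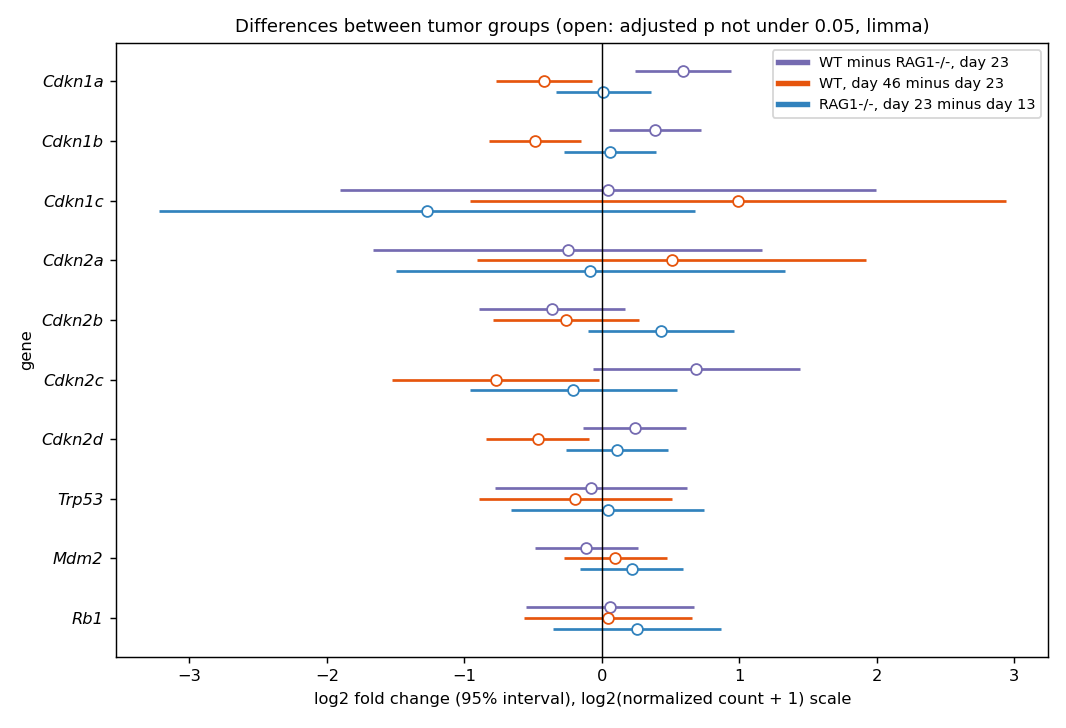
Log2 fold change of each gene between tumor groups (WT, wild-type), on the log2(normalized count + 1) scale, with 95% intervals from limma. All points are open since no adjusted p was under 0.05. The widest intervals belong to Cdkn1c and Cdkn2a, which had the fewest reads, and the interval of Cdkn1a between genotypes at day 23 (0.24 to 0.94) does not reach 0.

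Across the 12 tumors the genes differed in how much they varied. Mdm2 varied least, with a coefficient of variation of 13.6% and 592 to 941 normalized counts, followed by Cdkn2d (15.04%), Cdkn1b (18.6%) and Cdkn1a (22.8%). Rb1 (26.0%), Cdkn2b (26.0%), Trp53 (27.1%) and Cdkn2c (32.9%) varied more. Cdkn2a and Cdkn1c, at 56.7% and 61.7%, had 2 to 46 and 0 to 20 reads per tumor.

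In the same 12 tumors Cdkn1b and Cdkn2d varied together most closely of the gene pairs (Pearson r = 0.86 on the log2 scale), Cdkn1a correlated with Cdkn2d at 0.67 and with Cdkn1b at 0.65, and Trp53 with Rb1 at 0.64. Trp53 and its target Cdkn1a had r = 0.14, and Trp53 and Mdm2 −0.33. These are descriptions over tumors of 4 groups that share libraries and depth, with no test.

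Over all 16 libraries the pattern of Cdkn1a was most like that of Psrc1, Polb and the keratin gene Krt17 (r = 0.95, 0.95 and 0.94), and that of Rb1 most like Map7, Scamp2 and Mrc2 (0.96, 0.95 and 0.95). In the 12 tumors alone these r were 0.83, 0.60 and 0.86 for Cdkn1a and 0.79, 0.80 and 0.90 for Rb1. Cdkn2b was closest to Tmem150a (0.94), Cdkn1c to Clmp (0.95) and Cdkn2c to C1d (0.94). Cdkn1b was closest to Hist3h2a (0.88), Cdkn2d to Ift43 (0.90), Trp53 to Lonrf1 (0.80) and Mdm2 to C030034I22Rik (0.73). With tumors alone, r was 0.89 for Tmem150a, 0.82 for Clmp, 0.85 for C1d and 0.78 for Hist3h2a. It was 0.86 for Ift43, 0.76 for Lonrf1 and 0.79 for C030034I22Rik. The 16 libraries share groups, so these values are descriptions with no test.

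By group mean, Cdkn1a ran from skin (5521) through the tumors of wild-type mice at day 23 (2234) and at day 46 (1676), then tumors labelled RAG1-/- of day 23 (1478) and day 13 (1462), to MC38 cells (1086), and only skin and MC38 cells stood apart from their neighbors in this order. Cdkn2b ran from tumors labelled RAG1-/- of day 23 (1040) and MC38 cells (973) through the other tumor groups to skin (299), which lay below every other library. Rb1 had skin at 793 and MC38 cells at 125, both apart from the tumor groups between them (211 to 285), whose ranges overlapped one another. Trp53 had overlapping ranges at every step of its order, from 445 in tumors labelled RAG1-/- of day 23 to 293 in MC38 cells, and so had Mdm2, from 901 in MC38 cells to 703 in tumors labelled RAG1-/- of day 13.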

How the data were processed

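RNA was measured in 16 libraries of 6 groups. The authors made 3′ QuantSeq libraries, read them on an Ion Proton sequencer and removed adapters and poor bases (Cutadapt, Trimmomatic). Reads under 22 bases were dropped and the rest aligned to mm10 with STAR and then Bowtie2. One primary alignment per read was kept, which leaves near-identical gene copies uncertain. HTSeq counted reads per gene. The deposited signal is this count divided by a DESeq2 size factor, and 100% of the values were whole multiples (within 0.01 reads) of the value of 1 read, so the reads were recovered. Tool versions, annotation and strand setting are not given in the sources used here. Another 6 columns match no label and were not used, so 6 samples of antibody-treated mice are not analysed here.

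Values were tested as log2(normalized count + 1) with limma 3.58.1 in R 4.3.3 (trend, two-sided) over genes with a mean of at least 5, adjusted by the Benjamini-Hochberg method, and called under 0.05. The comparison of MC38 cells with skin used those 4 libraries, comparisons of tumors used all 12 tumors, and those of tumors with cells or skin used the 12 tumors and the 2 libraries. Alternatives were edgeR 4.0.16 (quasi-likelihood, TMM) and DESeq2 1.42.0 on the recovered reads, pseudocounts of 0.1 and 5, no filter or a mean of at least 20, libraries rescaled to the same total or upper quartile, no trend, a replicate block, all 16 libraries in one fit, and each library left out in turn. Single values were tested by exact permutation (scipy 1.17.1). The main limma fit, edgeR and DESeq2 were also run on simulated data. This was done for MC38 cells against skin, the genotypes at day 23, and wild-type tumors against MC38 cells and against skin. The other comparisons and alternatives were not simulated. Named were the 10 genes, up to 3 genes per direction with the largest change in each pathway list and comparison, marker genes, and the 3 genes most correlated with each of the 10 (mean of at least 20). Genes and lists were chosen with earlier results of these data known. Replicates of a group differed by 8.42 to 87.2 in chi-square per degree of freedom, far beyond sampling noise. Reads give counting error only. Positions are from GENCODE and promoters from RefSeq.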

Additional observations from a re-analysis of the deposited data

Results flagged for a closer look

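Cdkn2a in the third wild-type tumor of day 46 stood apart from the other wild-type tumors, at 19.5 normalized counts against 8.85 in the next of the 6 tumors. The gap was 0.79 of the whole range, above the 95% critical value of Dixon's test for 6 samples, and chance gives such a value in about 1 of 20 groups. Over the 10 genes and both genotypes 20 groups of 6 tumors were examined and this was the 1 that stood out. The value rests on 31 reads.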

How the results depend on the processing

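Of 1447 alternative values for the 10 genes, 1317 kept their direction and side of the threshold, 29 lost a call, 16 gained one and 85 changed sign, none of these 85 from a called value. The cause was not tested in any case. Counted among the 1317 are alternatives with no adjusted p, which kept their direction only. They belong to Cdkn1c and Cdkn2a between wild-type days, each with 15 adjusted p for 16 alternatives. Most alternatives belong to differences that the main fit did not call, and only a called difference can lose a call. Depth limits Cdkn1c and Cdkn2a most, since their reads in tumors reach down to 0 and 2.

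The 41 genes called between genotypes at day 23 became 22 with no filter, 15 with no trend, 22 with edgeR and 239 with DESeq2. The 0 genes called between wild-type days became 1 with the upper quartile and 43 with DESeq2, and the 0 between RAG1-/- days became 206 with DESeq2. The 105 genes called over both days became 48 with no trend and 285 with DESeq2. Of the 10 genes, the 1 called in tumors labelled RAG1-/- against MC38 cells became 2 with a pseudocount of 0.1, 0 with no filter, 2 with the upper quartile, 0 with the replicate block and 3 with DESeq2. Leaving out 1 library gave 6253 to 7400 genes and 2 to 6 of the 10 for MC38 cells against skin, 5 to 60 genes between genotypes at day 23, 0 to 7 between wild-type days, 0 to 37 between RAG1-/- days, 65 to 171 over both days, 2172 to 4396 genes and 1 to 5 of the 10 for wild-type tumors against MC38 cells, and 1832 to 3569 genes and 0 to 2 of the 10 for tumors labelled RAG1-/- against MC38 cells.

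Uncalled log2 differences changed sign as follows. With the same total, Trp53 in MC38 cells against skin was 0.059, Cdkn1b and Mdm2 in wild-type tumors against skin were 0.053 and 0.29, and between RAG1-/- days Cdkn1a, Cdkn1b, Cdkn2d and Trp53 were −0.11, −0.058, −0.0059 and −0.074. With the upper quartile, Cdkn1a, Cdkn1b and Trp53 between RAG1-/- days were −0.054, −0.0065 and −0.023, Cdkn2a over both days was 0.0099 and Mdm2 in wild-type tumors against skin was 0.099. A pseudocount of 5 gave −0.094 for Cdkn1c at day 23 and −0.059 and −0.011 for Cdkn2a in wild-type tumors and those labelled RAG1-/- against MC38 cells, and a pseudocount of 0.1 gave 0.25 for Cdkn1c over both days. With edgeR and DESeq2, Cdkn1c at day 23 was −0.26 and −0.28, Cdkn2a between RAG1-/- days was 0.19 and 0.17, and Cdkn2a against MC38 cells was −0.39 and −0.39 in wild-type tumors and −0.17 and −0.17 in those labelled RAG1-/-, while Mdm2 in wild-type tumors against skin was 0.058 with edgeR.

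Leaving out 1 library turned these signs. In MC38 cells against skin the range was −0.92 to 0.22 for Trp53 and −0.21 to 0.37 for Mdm2. At day 23 it was −1.04 to 0.73 for Cdkn1c, −0.67 to 0.34 for Cdkn2a, −0.35 to 0.074 for Trp53, −0.25 to 0.058 for Mdm2 and −0.038 to 0.17 for Rb1. Between wild-type days it was −0.46 to 0.23 for Trp53, −0.075 to 0.23 for Mdm2 and −0.24 to 0.42 for Rb1. Between RAG1-/- days it was −0.068 to 0.053 for Cdkn1a, −0.036 to 0.14 for Cdkn1b, −0.67 to 0.34 for Cdkn2a, −0.44 to 0.071 for Cdkn2c and −0.11 to 0.31 for Trp53. Over both days it was −0.64 to 0.25 for Cdkn1c, −0.26 to 0.26 for Cdkn2a, −0.29 to 0.058 for Trp53 and −0.024 to 0.13 for Mdm2. Against MC38 cells it was −1.18 to 1.27 for Cdkn2a and −0.47 to 0.11 for Mdm2 in wild-type tumors, and −1.14 to 1.31 and −0.51 to 0.064 in tumors labelled RAG1-/-. In wild-type tumors against skin it was −0.54 to 0.59 for Trp53 and −0.28 to 0.071 for Mdm2.

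Replicate numbers are shared between groups, but same-numbered tumors correlated at −0.22 to 0.19, over 0.1 in 4 of 18 pairs, so the numbers were not taken to pair the samples. With the replicate block, Cdkn2a in wild-type tumors and those labelled RAG1-/- against MC38 cells was −0.23 and −0.20, Cdkn2a was called lower in MC38 cells than in skin (limma, adjusted p = 0.0261), and the calls of Rb1 in tumors labelled RAG1-/- against MC38 cells (0.0637) and of Cdkn2d in wild-type tumors against skin (0.0602) were lost.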
